A study of Rattus norvegicus with 6 samples.

Results

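Bc1, Terc and Rpph1 are short, structured RNAs that work as the RNA part of a ribonucleoprotein. They were taken from the array table by the probe identifiers RB_p_rnol003923 (Bc1), RB_p_rnol004081 (Terc) and RB_p_rnol003976 (Rpph1), which are 3 of 6716 probes. They were chosen by identifier and by the kind of RNA, with earlier results of these data known. All 3 had a value on every array, and no value of theirs lay under 2 on the log2 scale. Only 540 of the 6716 probes had a value under 2, so this is no sign of detection.

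The hippocampus was taken from adult Sprague–Dawley rats of either sex. For the arrays the methods name 3 paired rats, of which 1 was female and the others male. The sex behind each sample is not given in the labels. In the denervated group (transected, 3 samples) the fimbria-fornix (FF), the fibre bundle that carries the septal cholinergic input, had been cut with a wire knife 7 days earlier. The normal group (3 samples) was untreated hippocampus without a sham operation, described as paired with the denervated tissue. Which samples share a rat is not given in the sources used here, so p-values measure the spread between these samples and treat them as independent. Cy5-labelled RNA of a single sample was put on each lncDETECT rat array. The deposited unit is log2 normalized intensity, on which a difference of 1 is a doubling.

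Bc1 is a neuronal RNA of rodents. It is made by RNA polymerase III, is carried into dendrites, and represses the start of translation near synapses. Terc is the RNA of telomerase. It carries the template from which the reverse transcriptase Tert adds telomere repeats, and it is known for its role in dividing cells. Rpph1 is the catalytic RNA of ribonuclease P, which trims the 5′ end of precursor tRNAs in every cell.

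The probes name the RefSeq transcripts of these genes. In the GRCr8 RefSeq table Bc1 lies on chromosome 1 from 209502897 to 209503049 (153 bases), Terc on chromosome 2 from 114744148 to 114744535 (388 bases) and Rpph1 on chromosome 15 from 26507232 to 26507488 (257 bases). The Bc1 interval overlaps Lto1 (209502900 to 209510237), and the Rpph1 interval lies inside that of Parp2, a poly(ADP-ribose) polymerase of DNA repair (26494722 to 26517893). The strand read by the probes is not given in the sources used here, so RNA from these overlapping genes cannot be told apart from the members. Terc overlapped no other gene of the table, and Actrt3 was the nearest protein-coding gene before it. The table names the chromosome 15 gene Rpph1, but it also lists Rmrp as a synonym and the RNase MRP RNA as its type, so that the identity of this probe as the ribonuclease P RNA rests on the symbol. No other probe named the accession of any of the 3 RNAs, and each RNA was therefore read by a single probe.

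The start of Bc1 is shown because this sequence is repeated in the rat genome. Bc1 is regarded as the source of the ID elements, a family of short repeats that rodents carry in many transcripts. RefSeq (GRCr8) gives the window chr1:209502647-209502946 on the forward strand, with 250 bases before the start in lower case and the first 50 transcribed bases in capitals.
Bc1: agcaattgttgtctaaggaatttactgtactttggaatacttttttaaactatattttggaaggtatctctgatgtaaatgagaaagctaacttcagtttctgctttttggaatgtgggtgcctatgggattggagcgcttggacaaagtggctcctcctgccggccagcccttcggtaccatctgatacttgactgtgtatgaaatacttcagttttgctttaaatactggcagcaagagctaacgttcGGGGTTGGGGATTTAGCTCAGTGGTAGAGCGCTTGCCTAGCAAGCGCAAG
The A box, a part of the internal promoter that RNA polymerase III uses at tRNA genes, was searched by its consensus on both strands. It matched at position 14 of the transcribed bases, on the forward strand, and 7.7% of all 33469 RefSeq windows of this length held a match. The start of the B box, the other part of that promoter, was searched as GGTTCG, and was in these letters on neither strand (5.12% of the windows held it). The window stops at base 50 of the RNA, so the bases after it were not searched. TATAAA (14.2% of the windows) and TAACCC (7.94%) were on neither strand. CCAAT (37.5%) was on the opposite strand only, while TTTT (80.0%) and ACA (99.5%) were in these letters as in most windows. The first 20 bases of the RNA, GGGGTTGGGGATTTAGCTCA, were found without a mismatch in 114 of 33468 other windows (0.341%), on the same strand in 47 and on the opposite strand in 71. The probe sequence is not given in the sources used here, so signal from ID elements in other transcripts cannot be told apart from Bc1.

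The arrays differed from each other in ways that the groups did not explain. Pearson correlations over all probes ran from 0.69 to 0.93. Normal 2 correlated at 0.69 to 0.785 with denervated 1, denervated 2, normal 1 and normal 3, and at 0.868 with denervated 3. Denervated 3 in turn correlated best with normal 2, although its correlations with the other 4 samples, 0.758 to 0.842, reached into the range of theirs. The labels place 2 samples in each raw scan without naming which, so the slide could not be used as a batch. The array medians lay between 10.17 and 10.19. When the log was undone, 78.1% to 80.7% of the values of an array (those of at least 2) lay within 0.001 of a whole multiple of 1/6, where 1.2% of evenly spread values would. Of the values of an array, 55.6% to 58.2% were found again on another array within 0.0001 on the linear scale. Averaging over arrays at equal rank would leave values shared between arrays, while the methods name only a 50% scaling. The arrays did not hold fully equal sets of values. Their highest log2 values ran from 15.99261 to 15.99463, and their medians also differed. After such averaging a value holds the rank of a probe on its array, not its absolute brightness. Whether such averaging was applied is not given in the sources used here and was not tested. Cell type markers could be read here only through microRNA precursor probes. Of the 3 matched neuronal probes, Mir124-3 lay under 2 on normal 1, and Mir9-2 on denervated 3, normal 2 and normal 3. Mir9-3 lay between 8.22 and 10.26. Among the markers of other tissues, Mir122 (liver) lay between 12.15 and 12.86 and Mir133b (muscle) between 12.23 and 12.63. The other muscle probes, Mir1 and Mir206, lay between 7.94 and 9.57 and between 4.86 and 8.53. Whether any of these values were unspecific signal was not tested. Levels of different probes cannot be set against each other, so the tissue was not checked by these markers. None of the 17 matched marker probes passed an unadjusted p under 0.05 in limma, which 1.97% of all probes did. For so short a list this says little about cell composition.

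**Figure D1:**
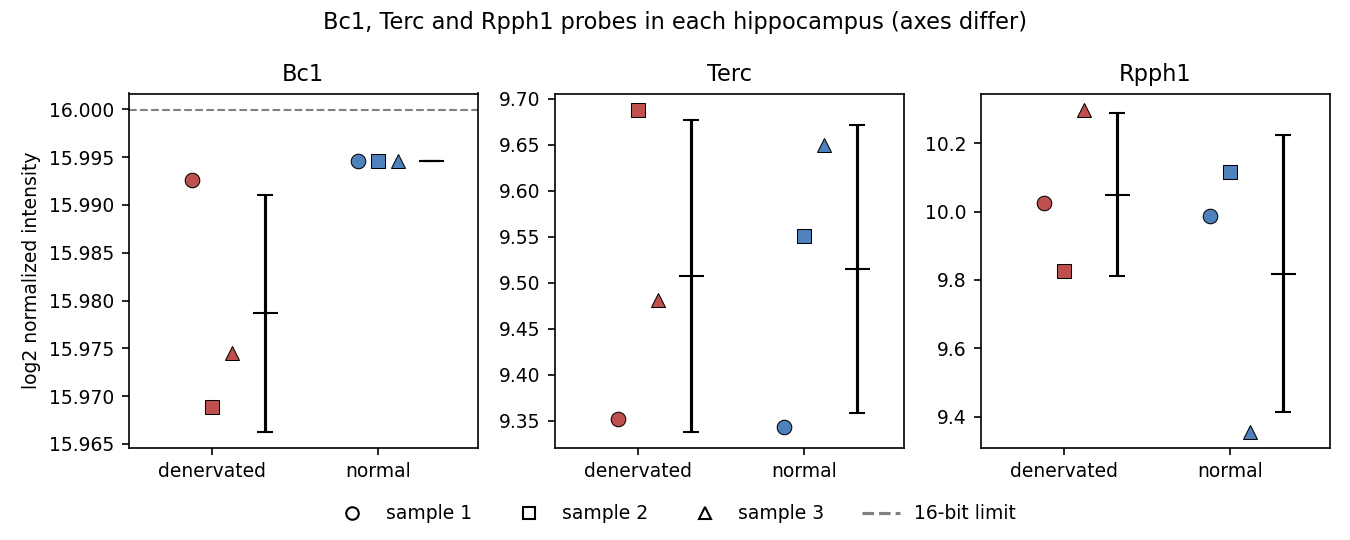
Log2 normalized intensity of the Bc1, Terc and Rpph1 probes in each of the 6 hippocampi, with the group mean and SD (n = 3) as bars beside the points and a separate vertical axis for each RNA. The Bc1 values lie within 0.03 of each other just under the 16-bit limit (dashed), the Terc groups lie over the same range, and the low point of Rpph1 is normal 3.

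Bc1 had normalized values close to the largest 16-bit number in all samples. On the linear scale its normalized intensity was 65201, 64137 and 64389 in denervated 1, 2 and 3, and 65293 in each of the 3 normal samples. The largest number that a 16-bit scanner can record is 65535, so the lowest of these values was 97.9% of that limit and the normal samples were at 99.6% of it. Bc1 was the brightest probe on 4 arrays, including all 3 normal arrays, the second brightest on denervated 2 and the third brightest on denervated 3. It was the only probe within 0.1 (log2) of the scanner limit on all 6 arrays, and 5 others came that close on at least 1 array. It was also the only probe of the table with the same value, within 1e-09 on the log2 scale, on all 3 normal arrays (0.0149% of all probes). Bc1 held the top rank on each of them, and averaging at equal rank would give equal ranks the same value. Whether the shared value arose in this way was not tested.

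All 3 denervated samples lay below all 3 normal samples, by a difference of means of -0.016 on the log2 scale, or 1.1% of the linear intensity (64576 against 65293). The groups did not overlap for 5.9% of all probes, in either direction, and were lower in the denervated samples without overlap for 2.53%. The exact permutation test gave a two-sided p of 0.1, the smallest that 3 samples against 3 allow. In limma the adjusted p was 1.0, where 0.0149% of all probes had an adjusted p under 0.05 and 1.97% had an unadjusted p under 0.05. The unadjusted p of Bc1 was 0.95. With the normalized values of both groups near the limit, a difference in the amount of Bc1 RNA could not be read in either direction. For this reason no fold change is given. Saturation of the raw scans was not checked, so what the scanner itself read for Bc1 is not known. The SD over 6 samples, 0.0117 on the log2 scale, was the smallest of all probes. At this limit it is no measure of how steady the RNA was.

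**Figure D2:**
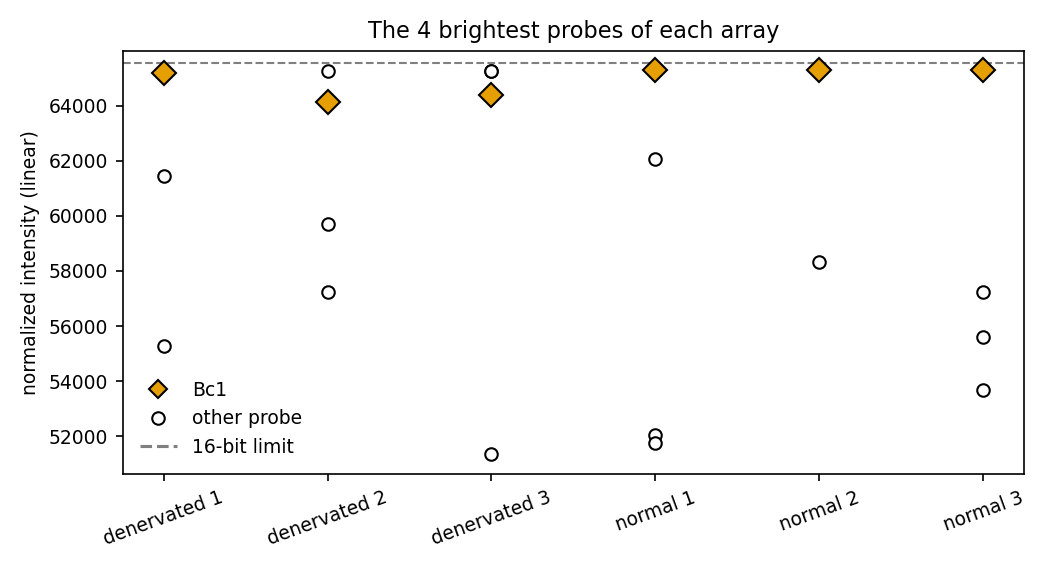
Linear normalized intensity of the 4 brightest probes on each array, with Bc1 as diamonds, other probes as open circles and the 16-bit limit of 65535 as a dashed line (the axis does not start at 0). Bc1 lies at 64137 or more on every array, while the fourth probe of an array lies between 51341 and 58332, and points that share a height overlap on denervated 1, denervated 3 and normal 2.

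Terc had normalized values far below the 16-bit limit, at 0.991% to 1.26% of it (linear intensity 650 to 825). How far it lay above background could not be assessed. Its log2 intensity was 9.35, 9.69 and 9.48 in denervated 1, 2 and 3 and 9.34, 9.55 and 9.65 in normal 1, 2 and 3. The groups covered the same range, with normal 1 the lowest and denervated 2 the highest sample. The denervated mean was 9.51 ± 0.17 and the normal mean was 9.51 ± 0.16 (SD, n = 3 each). The difference of -0.0074 was smaller than the spread between replicates, with a 95% interval in limma from -0.65 to 0.64, or from 0.636-fold to 1.56-fold (adjusted p = 1.0). The exact permutation test gave a two-sided p of 1.0. True differences within that interval remain possible with these 6 samples, and the interval is not a limit of detection. It describes the probe signal only. In its usual form the labelling kit primes from poly(A), which mature Terc lacks. How far this probe reads telomerase RNA was not tested. In bulk tissue, fewer cells of a type and less RNA per cell cannot be told apart, and a change limited to the few dividing cells of the dentate gyrus is part of a whole-hippocampus value here. The interval takes in spread that limma borrows from all probes. The SD of Terc over the 6 samples was 0.146, below 99.0% of the 500 probes closest to it in mean intensity, whose median SD was 0.482. Terc was thus among the steadiest probes of its brightness, at the 36.7th percentile of mean intensity.

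Rpph1 had a wider range than Terc, and its lowest sample was normal 3. Its log2 intensity was 10.03, 9.83 and 10.30 in denervated 1, 2 and 3 and 9.99, 10.11 and 9.36 in normal 1, 2 and 3. All values but that of normal 3 lay within 9.83 to 10.30, and normal 3 lay below them. The denervated mean was 10.05 ± 0.24 and the normal mean was 9.82 ± 0.41 (SD, n = 3 each), and the groups overlapped. The difference was 0.23 with a standard error of 0.33 and a 95% interval in limma from -0.57 to 1.03, or from 0.673-fold to 2.05-fold (adjusted p = 1.0, unadjusted p = 0.51). The exact permutation test gave a two-sided p of 0.5. The difference moved with single samples. It was -0.00039 without normal 3, 0.11 without denervated 3 and 0.38 without normal 2. The SD of Rpph1 over the 6 samples was 0.323, below 81.8% of the 500 probes closest in mean intensity (median 0.470). Mature Rpph1 also lacks poly(A), and how far its probe reads this RNA was not tested either.

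**Figure D3:**
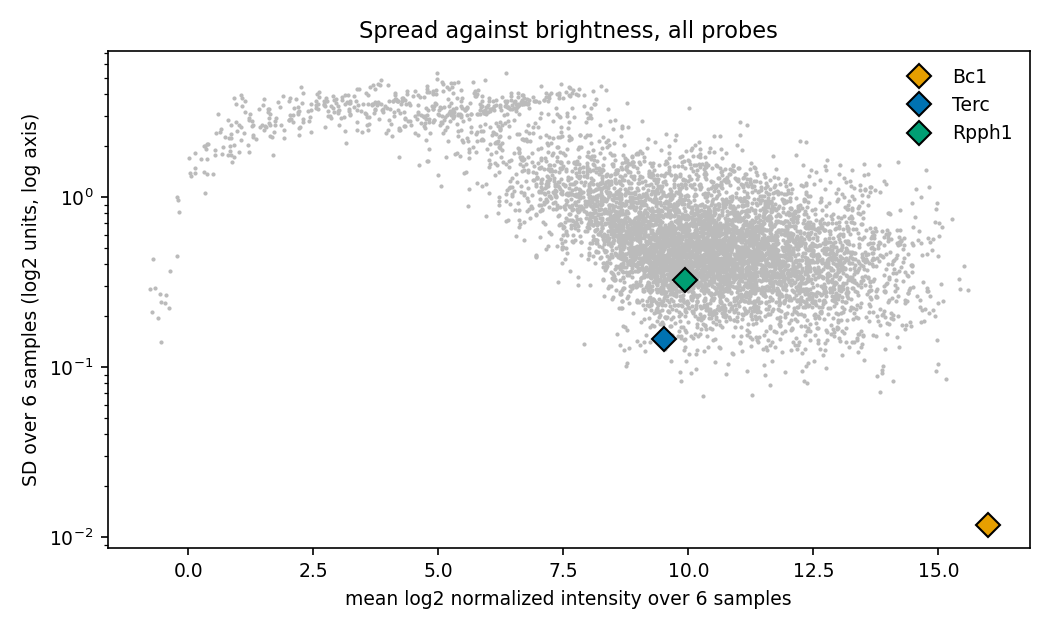
SD over the 6 samples (log2 units, log axis) against mean log2 normalized intensity for all 6716 probes (grey), with Bc1, Terc and Rpph1 as diamonds. Terc at an SD of 0.146 lies along the lower edge of probes of its brightness, Rpph1 at 0.323 lies within the lower part of the cloud, and Bc1 at 0.0117 lies alone in the corner of the brightest probes.

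Terc and Rpph1 did not vary together. They lay on the same side of their own mean in 1 of 6 samples (normal 2). In normal 3, the lowest sample of Rpph1 at 0.58 below its mean, Terc was 0.14 above its mean. In denervated 2, the highest sample of Terc at 0.18 above its mean, Rpph1 was -0.11 from its mean. Denervated 3 and normal 2, which correlated best with each other over all probes, were the 2 highest for Rpph1, which was so for 26.9% of all probes, and normal 3 was the lowest sample for 15.8% of all probes. Both held together for 6.05%. Without denervated 3 and normal 2 the difference of Rpph1 was 0.26 (95% interval from -0.72 to 1.23), that of Terc was 0.02 (from -0.83 to 0.88) and that of Bc1 was -0.014.

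Other structured RNAs of the array were taken by their RefSeq type and by a list of names of ribonucleoprotein RNAs. The list, which covers RNase MRP, 7SK, 7SL, Y, vault, small nuclear and small nucleolar RNAs, matched only Snora36c, by its symbol a small nucleolar RNA of the kind that guides pseudouridylation. The table gives this gene the type of a microRNA, so that its place among these RNAs rests on the symbol. The types added 5 ribosomal RNAs and the small nuclear RNA LOC252890. None of these 7 passed an unadjusted p under 0.05 in limma, which 1.97% of all probes did, so this says little about them. Their median difference was 0.39 with 6 of 7 above 0, where the median of all probes was 0.02 and 52.0% of them (3492 of 6716) were above 0. Several of the ribosomal RNAs come from the same precursor, so the 7 are not independent. The count therefore does not show a shared rise. Rn18s, the RNA of the small ribosomal subunit, had the largest difference of the 7 at 1.03, with a denervated mean of 7.74 ± 0.41 and a normal mean of 6.72 ± 1.74 (SD, n = 3 each). It was a dim probe, at the 11.0th percentile of mean intensity, with values from 5.47 to 8.71. How well these probes follow the amount of ribosomal RNA was not tested. The difference of Terc was nearer to 0 than any of the 7, and that of Rpph1 lay between those of Rn5-8s (0.04) and Rn5s (0.32). The intervals of all 10 RNAs included 0, and no difference between the members and the other RNAs was tested.

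**Figure D4:**
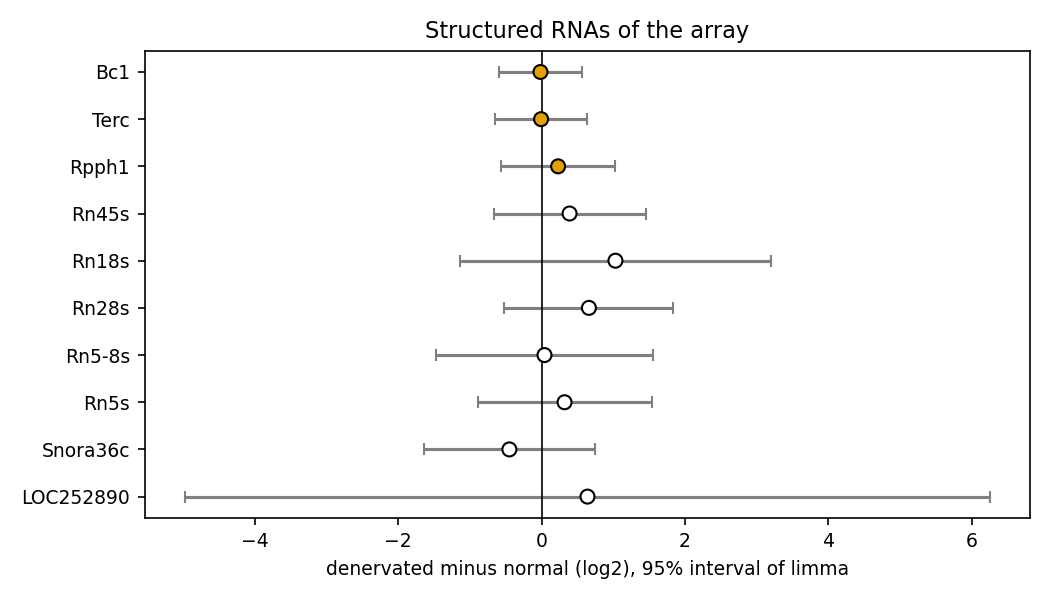
Difference of mean log2 intensity, denervated minus normal, with the 95% interval of limma, for Bc1, Terc and Rpph1 (filled) and for 7 other structured RNAs (open). Every interval crosses 0. The narrowest is that of Bc1, whose normalized values are close to the 16-bit limit. The widest is that of LOC252890, which has a value under 2 in normal 1.

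Normal 3, the lowest sample of Rpph1, was also the lowest for 2 of the 5 ribosomal RNAs. Rn45s, the precursor of the large ribosomal RNAs, read 13.51, 13.07 and 13.63 in denervated 1, 2 and 3 and 13.05, 13.69 and 12.29 in normal 1, 2 and 3. Rn28s, which is cut from that precursor, read 12.94, 12.53 and 12.86 in the denervated and 12.38, 12.81 and 11.16 in the normal samples. Both were lowest in normal 3. Rn18s was also low there, at 5.97 or -1.26 from its mean, but was lower still in normal 1 at 5.47. Rn5-8s, which is cut from the same precursor, was highest in normal 3 and lowest in normal 1, and Rn5s was lowest in normal 2. After each probe was centred on its own mean, the root mean square difference from Rpph1 over the 6 samples was 0.223 for Rn45s, 0.353 for Rn28s, 0.727 for Rn5s, 0.837 for Rn5-8s and 1.02 for Rn18s, against 0.298 for Bc1 and 0.383 for Terc. Among the probes with no value under 2, 299 others were closer to Rpph1 than Rn45s and 1523 were closer than Rn28s, so neither was among its nearest profiles. These pairs were chosen after their values had been seen. In the study's quality record the integrity number of the RNA was higher in all denervated than in all normal samples. It therefore cannot be told apart from the transection in any difference between the groups, those of the 3 members included. Normal 3 of that record had the lowest number. That its sample numbers are those of the arrays is assumed here, and the part of RNA integrity in these values was not tested.

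**Figure D5:**
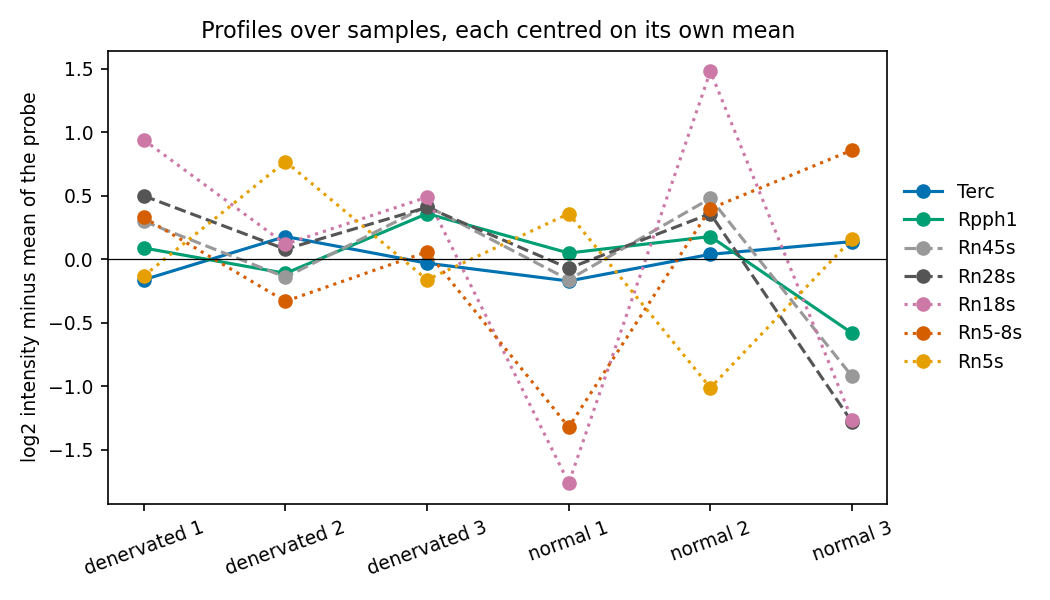
Log2 intensity of Terc, Rpph1 and 5 ribosomal RNAs in each sample, minus the mean of that probe over the 6 samples. Rpph1, Rn45s and Rn28s are lowest in normal 3 (-0.58, -0.92 and -1.28), where Terc is at 0.14 and Rn5-8s at 0.86, while Rn18s is low in normal 3 (-1.26) and lowest in normal 1 (-1.76), and Rn5s is lowest in normal 2 (-1.01).

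Profiles most like those of the members were found by the same root mean square difference, among the 6175 other probes with no value under 2. The closest to Terc was RB_p_rnol001177, a rat match of a mouse transcript, at 0.0695, where the median over the probes was 0.492. RB_p_rnol005939 (0.0733) and RB_p_rnol006247 (0.0781), both RefSeq transcripts without a gene name in the table, came next. The closest to Rpph1 were RB_p_rnol003701 (0.079) and RB_p_rnol005522 (0.0903), rat matches of mouse transcripts, and RB_p_rnol001676 (0.0801), an Ensembl rat transcript, against a median of 0.505. For Bc1 the measure finds the flattest probes, and it was smallest for RB_p_rnol002646 (0.0529), RB_p_rnol003076 (0.0643) and RB_p_rnol003028 (0.0661). Probes with a gene name other than a microRNA were farther away. The closest of them were Abhd11-as1, Dcaf11 and 2810025M15Rikl for Bc1 (0.0912, 0.12 and 0.137), Bc1, Abhd11-as1 and Chchd4l1 for Terc (0.138, 0.162 and 0.185), and LOC682259, LOC100909912 and LOC100910620 for Rpph1 (0.178, 0.199 and 0.206). A flat probe such as Bc1 comes close to any profile of small spread, and Bc1 was the 37th closest to Terc among these 6175 probes.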

How the data were processed

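The authors labelled total RNA with Cy5 by an amino allyl amplification kit, scanned the arrays on a GenePix 4000B, applied a 50% scaling, summarized repeated spots by their median and repeated arrays by their mean, and deposited log2 normalized intensity. In its usual form such a kit primes from poly(A), which mature Terc and Rpph1 lack and which Bc1 holds as an internal A-rich stretch. A background correction and saturation flags are not given in the sources used here. The authors' 2 lists of changed lncRNAs hold log2 ratios, ratios and p-values and were not used. A second deposited table of log2 values differed by less than 1e-08.

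Denervated and normal samples were compared over all 6716 probes with limma 3.58.1 in R 4.3.3 (lmFit, eBayes), without a block or a filter, with Benjamini-Hochberg adjustment over all probes. Single probes were compared by an exact two-sided permutation test (scipy 1.17.1). The limma step was tested on simulated data. Precision is limited by 3 arrays per group. Probes were named through the GRCr8 RefSeq table, which named 389 of 6716. Promoter windows and motifs came from RefSeq, where Bc1 was matched and Terc and Rpph1 are named only, so 1 of 3 members has a window. The members and lists were chosen with earlier results of these data known. The text names the members, the other structured RNAs and the 3 closest profiles of each member. Other structured RNAs by type and the A box were added after the values were seen. Figures were drawn with matplotlib 3.10.9. Alternatives were quantile normalization, array medians, the upper 50% of probes, an intensity trend, the sample number as a block, the methods' t-test, the second table, a floor of 5 and leaving out samples.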

Additional observations from a re-analysis of the deposited data

How the results depend on the processing

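No alternative brought Bc1, Terc or Rpph1 to an adjusted p under 0.05 (lowest 0.99, 0.98 and 0.81). Terc and Rpph1 lie outside the upper 50% of probes. Bc1 ran from -0.06 (quantile normalization) to -0.011, which gives no direction because its normalized values were close to the 16-bit limit. Without 1 sample Bc1 ran from -0.02 to -0.011, Terc from -0.1 to 0.07 and Rpph1 from -0.00039 (without normal 3) to 0.38. The direction of Terc turned in 5 of 14 alternatives, at 0.07, 0.0055, 0.011 and 0.06 without denervated 1, denervated 3, normal 2 and normal 3, and at 0.02 without denervated 3 and normal 2. Intensity over background could not be assessed.

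Over all probes 1 had an adjusted p under 0.05 in limma (132 unadjusted), and 70 higher and 20 lower probes passed an absolute log2 difference above 1 with an unadjusted p under 0.05. The adjusted count was 0 with quantile normalization, the upper 50% of probes, an intensity trend, the block, the methods' t-test and a floor of 5, where 144, 78, 143, 62, 162 and 170 had an unadjusted p under 0.05. It was 3 without denervated 3 and normal 2, and 0 to 9 without 1 sample. With the upper 50% of probes 26 were higher and 8 lower, by the methods' t-test 37 and 9, and without denervated 3 and normal 2 269 and 93. Lower probes numbered 34 with quantile normalization and 11 with the block. Without 1 sample the lowest count of higher probes was 39 (denervated 1 left out) and the highest 245 (normal 2 left out), and leaving out denervated 3 gave 133. For lower probes these were 6 (normal 3 left out) and 90 (denervated 2 left out), and leaving out denervated 3 or normal 2 gave 79 or 73. Of the cell type markers 0 passed an unadjusted p under 0.05 in limma, against 2 without denervated 3 and normal 2 and 0 to 2 without 1 sample. Over all probes those counts were 132, 455 and 63 to 398. The upper 50% tests fewer probes. For all other changes the cause was not tested.

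The sample numbers were not treated as pairs, since nothing in the labels ties equal numbers to a shared animal. Deviations from the group means of samples with equal number correlated at -0.05, -0.52 and -0.35. With the number as a replicate block the differences were -0.016 for Bc1, -0.0074 for Terc and 0.23 for Rpph1, each with an adjusted p of 1.0 in limma, and the count of probes with an unadjusted p under 0.05 fell from 132 to 62.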
